A study of Caenorhabditis elegans with 2 samples.

Results

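The autosomal promoter summits are the positions near gene starts, on chromosomes other than X, where tagged CEH-28 gave ChIP-seq peaks in Caenorhabditis elegans larvae. A summit, the highest point of a peak, was taken from the authors' list of peaks that passed the irreproducible discovery rate (IDR) threshold on the ce11 build. It had to lie between 1000 bp upstream and 500 bp downstream of the annotated start of a protein-coding gene, and in no exon of such a gene. This rule used position only, and it left 450 summits in 444 regions, 25.9% of the 1739 thresholded summits and 29.1% of the 1544 on the autosomes. Another 110 autosomal summits met the distance rule but lay in exons, and these were counted among the other autosomal summits. The other 1094 autosomal thresholded summits, which lay in introns (598), exons (301) or between genes (195), served for comparison. So did 3813 weaker promoter summits, which met the same position rule in the pooled peak list but did not pass the threshold.

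The series has 1 group of 2 biological replicates. Both were whole L4 larvae, the last larval stage, of both sexes from strain OP241, whose genotype the labels give as unc-119(ed3) III; wgIs241. The unc-119(ed3) allele is a mutation of a gene commonly used as a transgene marker, and wgIs241 is the insertion that carries eGFP-tagged ceh-28. Untagged animals and other stages formed no group, and per the lineage notes both replicates drew on the same control. The labels call the 2 biosamples biological replicates without naming separate cultures. All tissues were combined, so the cell types that gave a peak cannot be told apart. The peak lists held 23410 summits in replicate 1, 26414 in replicate 2 and 20803 for both pooled. Of the pooled summits, 8.36% passed the threshold; among those that met the promoter rule 10.6% did (450 of 4263), against 8.36% of the other autosomal ones (1094 of 13093). The lists hold no read counts, so the depth is unknown.

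CEH-28 is an NK-2 class homeodomain transcription factor that acts in synapse assembly and signalling of the M4 neuron of the pharynx. NK-2 proteins typically recognise sites built around AAGTG. Many worm genes are trans-spliced, so an annotated start can be the place where the spliced leader was joined rather than the first transcribed base, and the promoter may lie further upstream. Neighbouring genes are also often arranged head to head, on opposite strands, and share the DNA between their starts.

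The sequences around several of the highest summits show the element that most of them have in common. Each stretch is 121 bases centred on the summit, on the plus strand of WBcel235 (the same assembly as ce11), from RefSeq, and touches no exon. The first 4 are the highest summits eligible for printing, and capitals mark ATCGAT, a palindrome, and its 1-letter variant ATCAAT, in either orientation. In the order printed they lie at chrIV:5685160-5685280, chrII:13414246-13414366, chrII:724080-724200 and chrIV:1435302-1435422.
C55C3.3: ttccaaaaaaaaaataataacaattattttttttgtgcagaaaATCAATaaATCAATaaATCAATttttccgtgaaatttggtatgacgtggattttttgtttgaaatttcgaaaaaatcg
Y48E1C.1: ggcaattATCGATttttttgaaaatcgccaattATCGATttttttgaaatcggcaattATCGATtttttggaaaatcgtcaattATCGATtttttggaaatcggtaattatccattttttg
rfip-2: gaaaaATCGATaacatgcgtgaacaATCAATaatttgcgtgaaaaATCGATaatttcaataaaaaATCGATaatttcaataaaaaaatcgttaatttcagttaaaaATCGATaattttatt
clp-6: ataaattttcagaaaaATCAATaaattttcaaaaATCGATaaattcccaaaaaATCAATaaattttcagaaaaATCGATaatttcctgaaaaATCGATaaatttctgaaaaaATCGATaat
In 3 of these the palindrome recurred 4 times within the stretch. The starts of neighbouring copies lay 26, 25 and 26 bp apart at Y48E1C.1, 40, 20 and 41 bp apart at rfip-2, and 39, 19 and 20 bp apart at clp-6. The C55C3.3 stretch held 3 copies of ATCAAT side by side and no ATCGAT, whose nearest copy lay 59.5 bp from the summit, measured to its middle.

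The stretches that follow held no ATCGAT. The next sequence is the summit of the highest divergent gene pair, tasp-1 and K01G5.10, at chrIII:10759178-10759298, in which the same marking found no copy, the nearest ATCGAT lying 85.5 bp away.
tasp-1: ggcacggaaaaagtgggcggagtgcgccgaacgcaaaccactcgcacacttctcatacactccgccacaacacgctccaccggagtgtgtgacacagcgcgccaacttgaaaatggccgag
The last pair are the highest eligible summits with no ATCGAT within 100 bp that show GAGACG or AGAGAG in the stretch, a choice made after the values were seen. They lie at chrIV:4905887-4906007 and chrII:6347923-6348043, and capitals here mark AGAGAG alone; ATCAAT also occurs on either strand, in 3 copies at T08B6.4 and 1 at lgg-1.
T08B6.4: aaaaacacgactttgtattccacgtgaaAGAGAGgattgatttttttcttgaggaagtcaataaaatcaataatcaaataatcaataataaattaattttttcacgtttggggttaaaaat
lgg-1: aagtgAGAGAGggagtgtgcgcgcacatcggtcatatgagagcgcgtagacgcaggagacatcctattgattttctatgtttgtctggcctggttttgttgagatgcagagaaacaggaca

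The highest signals sat at a mixed group of genes, many of them known only by a sequence name. Signal is the authors' peak height, on a scale that is not stated, and the replicate value is that of the replicate's region overlapping the summit. At C55C3.3, which encodes a protein with a prion-like domain, the summit lay 67 bp upstream of the start with a pooled signal of 821, 600.3 in replicate 1 and 210 in replicate 2. At Y48E1C.1, annotated by RefSeq as a 30 kDa subunit of translation initiation factor eIF3, it lay 701 bp upstream with 777 pooled, 616 in replicate 1 and 170.0 in replicate 2. At rfip-2, for a protein with a Rab-binding FIP domain, it lay 352 bp downstream of the start in an intron, with 623 pooled, 478 in replicate 1 and 146 in replicate 2. The ratios of replicate 1 to replicate 2, 2.86, 3.62 and 3.27 in that order, lay between the quartiles of all promoter summits (2.18 and 3.67).

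The following summits belonged to C37A5.7, for a TRM10-type methyltransferase domain protein (543), clp-6, a calpain protease gene (538), Y39E4A.1 (517), R148.4 (503), Y71G12B.2 (486) and the tyrosine phosphatase domain gene Y54F10BM.3 (484). Below them came the pair tasp-1 and K01G5.10 (403), where tasp-1 encodes a homologue of the threonine protease taspase. The pair sre-50, a chemoreceptor gene, and C50E10.1 followed (402). The list of the 20 highest went on with K08C9.1 (354 and 344), the SH2 domain gene C16A11.7 (353), Y48G1C.13 (346), and K07A3.3 (341), for a mitochondrial ClpX-like protein. It ended with alkb-1, an AlkB-type dioxygenase gene (331), cox-5A, a subunit of cytochrome c oxidase (331), a second clp-6 summit 300 bp downstream of the start (330.0) and the phosphatase gene Y80D3A.8 (327). All 20 lay in the outer parts of their chromosomes, and all 20 had at least 1 ATCGAT site within 100 bp.

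Across the 450 summits the pooled signal ran from 56.5 to 821, with a median of 83.0 and quartiles of 67.1 and 116. The other autosomal thresholded summits had a median of 95.9 and reached 2314, those in introns having a median of 111, those between genes 90.6 and those in exons 84.8. At or above the median of all autosomal thresholded summits (91.2) lay 40.7% of the promoter summits (95% Wilson interval 36.2 to 45.3), against 53.8% of the others (50.9 to 56.8). This difference passed Fisher's exact test (two-sided, adjusted p = 7.46e-06, Benjamini-Hochberg over 7 shares) and had the same direction on 5 of 5 autosomes. Of the 100 highest summits in the pooled list, 16 were promoter summits. These tests and intervals treat summits as independent and cover counting error only, although neighbouring summits can share a region.

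Nearly all promoter summits had a region in both replicates, replicate 1 at higher values. The thresholded list was made from both replicates, so this presence follows in part from how the summits were chosen. In replicate 1 the signals had a median of 63.0 (32.3 to 616), and in replicate 2 a median of 23.5 (4.70 to 210) over the 448 summits with a region there. Replicate 1 was the higher at 446 of these, with a median ratio of 2.79 (95% order-statistic interval 2.68 to 2.95); the other autosomal summits had 2.71 (2.66 to 2.82). Because the scale is not stated, the ratio cannot be read as a difference in binding. Spearman's rho between the replicates was 0.595 over the 448 summits, against 0.788 at the other autosomal summits, and Pearson's r on log10 values was 0.751 against 0.846. These correlations are descriptions over summits that share 2 libraries and a control. The pooled signal spanned a narrower range at promoter summits (quartiles 67.1 and 116) than at the others (69.9 and 165). The part of this range in the lower correlations was not tested.

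**Figure D1:**
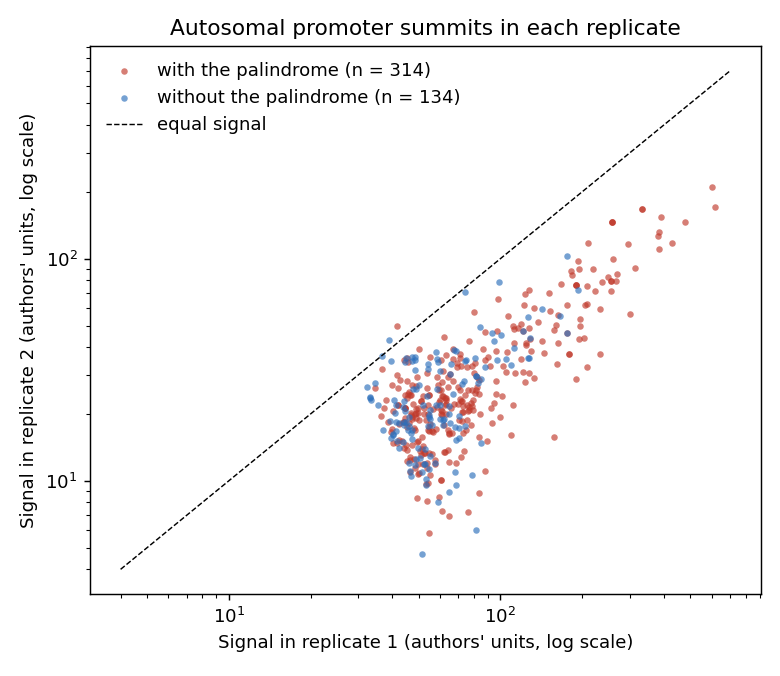
Signal of each autosomal promoter summit in replicate 2 (vertical, authors' units, log scale) against replicate 1 (horizontal, same units, log scale), for the 448 summits with a value in both. Points with and without ATCGAT (the palindrome) within 100 bp are coloured apart, the dashed line marks equal signal, and 446 points lie below it.

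A summit counted as high in a replicate when its region overlapped, by at least 1 bp, a region of that replicate's 1739 highest summits. By this measure 91.1% of the promoter summits were high in replicate 1 and 74.2% in replicate 2, against 93.2% and 81.2% of the others. In both replicates at once 67.8% were high (63.3 to 71.9), against 75.5% (72.9 to 78.0), which passed (Fisher's exact adjusted p = 0.00275). The share was lower at promoters on 4 of 5 autosomes and higher on IV. It did not pass among summits at or above the median signal of the thresholded list (94.2% against 97.3%, Fisher's exact adjusted p = 0.0788), or when the replicate's high summit itself had to lie within 100 bp (63.1% against 66.6%, 0.227).

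Several promoter summits differed sharply between the replicates; they were picked after their values were seen. The summit shared by rsp-2 and rsp-1, genes of SR splicing factors, had 81.1 in replicate 1 and 6.002 in replicate 2, a ratio of 13.5. At rbx-2 the values were 51.6 and 4.70, and the replicate 2 region ranked 26308 of 26414. At vps-4, an ESCRT ATPase gene (61.3), and Y38F2AR.10 (87.6), replicate 1 had a region and replicate 2 had none that overlapped. The reverse order was seen at C30G7.3 (41.6 in replicate 1 and 50.01 in replicate 2) and K10C3.4 (38.7 and 43.2).

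The promoter summits were denser close to the start than at the upstream end of the window. Of the 450, 364 (80.9%) were upstream and 86 (19.1%) downstream of the nearest start; the window is longer upstream, and 77.7% of its non-exonic space and 82.0% of the weaker promoter summits were upstream too. The distances had a median of 182 bp upstream (order-statistic interval 150 to 242); the weaker promoter summits had a median of 209 bp. Per Mb of non-exonic promoter space there were 19.3 summits at 1000 to 801 bp upstream, 37.2 at 400 to 201 bp and 50.9 at 200 to 101 bp. The last 100 bp before the start held 46.5 per Mb, and 25.4 per Mb lay 100 to 299 bp downstream. The bin of the first 100 bp downstream held 5 summits. Weaker summits followed a similar course, with 190 per Mb at the far end and 414 per Mb in the last 100 bp. The share that passed the threshold was between 8.29% and 12.7% in all 9 bins.

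**Figure D2:**
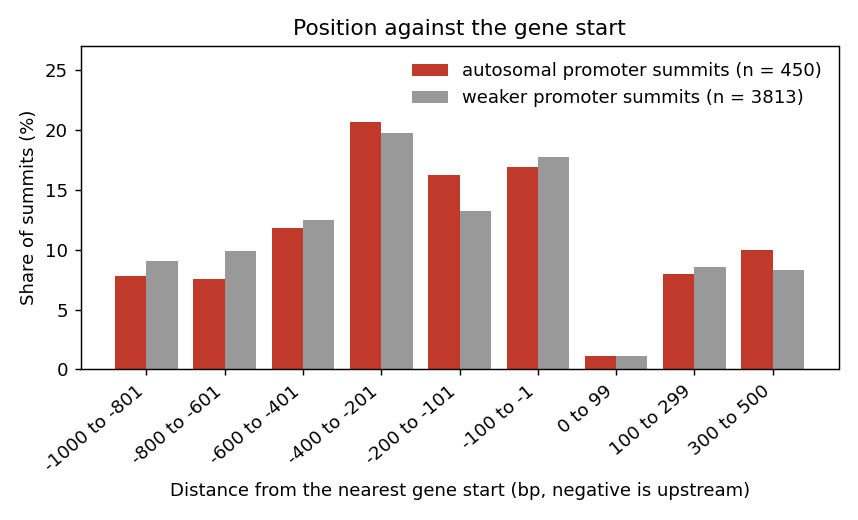
Share of summits (vertical, %) by distance from the nearest gene start (horizontal, bp, negative upstream, in bins of unequal width) for the 450 autosomal promoter summits (red) and the 3813 weaker promoter summits (grey). Both sets are most frequent in the 400 bp upstream of the start, and few lie in the first 100 bp downstream, where non-exonic space is scarce.

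In 132 cases (29.3%) the summit lay in an intron of a protein-coding gene, and 318 lay between genes. The ones downstream of a start more often had ATCGAT: 86.1% at 100 to 299 bp and 84.4% at 300 to 500 bp, against 60 to 71.7% in the 6 upstream bins. At the upstream edge of the window the last summits inside belonged to immp-2 (992 bp, signal 186), row-1 (989 bp, 80.7) and mrpl-15 (987 bp, 91.7). The first ones outside were nearest to Y53H1B.2 (1004 bp, 68.4), cri-3 (1019 bp, 71.4) and egl-3 (1019 bp, 158). At the downstream edge alkb-1 (490 bp, 72.99), sma-4 (476 bp, 74.4) and sqv-8 (458 bp, 57.1) were the last inside. Those first outside were txdc-17 (515 bp, 178), Y54F10BM.3 (527 bp, 287) and Y24D9B.1 (532 bp, 334). At the signal threshold, Y92H12BR.2, EGAP1.1 and F33H2.3 were just inside at 56.6, 56.6 and 56.5, and unc-11, dnj-13 and tos-1 just outside at 56.5, 56.3 and 56.3.

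ATCGAT lay within 100 bp of most promoter summits, but at fewer of them than of the other autosomal summits. The window was 201 bp and both strands were read. The site was present at 316 of 450 promoter summits, 70.2% (65.8 to 74.3), against 915 of 1094 others, 83.6% (81.3 to 85.7; Fisher's exact adjusted p = 3.01e-08, lower on 5 of 5 autosomes). By place, the other summits had 88.1% in introns, 69.7% between genes and 83.7% in exons, so the promoter share stood beside that of summits between genes. Weaker promoter summits had 28.8% (27.4 to 30.3), and windows spaced every 50 bp through all autosomal promoter space 6.79% (20062 of 295462).

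GA-rich sites ran the other way. GAGACG, which reads CGTCTC on the other strand, lay at 20.2% of the promoter summits (16.8 to 24.2) against 13.4% of the other autosomal summits (11.5 to 15.6; Fisher's exact adjusted p = 0.00153, higher on 4 of 5 autosomes). AGAGAG, which reads CTCTCT there, lay at 24.9% (21.1 to 29.1) against 16.3% (14.2 to 18.6; Fisher's exact adjusted p = 0.000240, higher on 5 of 5). Within 50 bp neither passed: GAGACG had 10.2% against 7.68% (Fisher's exact adjusted p = 0.150) and AGAGAG 11.6% against 9.78% (0.311). The highest shares were at summits between genes, 31.3% for GAGACG and 38.5% for AGAGAG, and introns had 9.53% and 9.87%. Weaker promoter summits had 10.9% and 14.9%, and all promoter space 5.58% and 8.75%.

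The NK-2 site, searched as TCAAGTG or TTAAGTG on both strands, was rare everywhere. It lay at 16 promoter summits, 3.56% (2.20 to 5.70), and at 26 of the others, 2.38% (1.63 to 3.46), a difference of 1.18 points that did not pass (Fisher's exact adjusted p = 0.227). Weaker promoter summits had 4.14% and promoter space 4.36%. With windows of 500 bp either side of the start the values were 4.49% against 2.19%, which passed (Fisher's exact adjusted p = 0.0251).

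**Figure D3:**
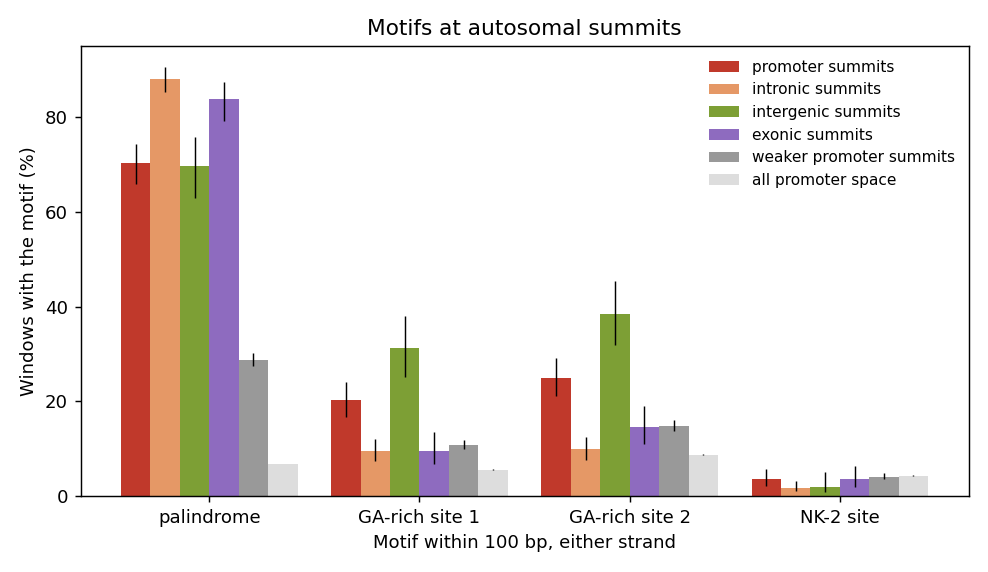
Share of windows of 100 bp either side with each motif (vertical, %) for promoter summits, the other 3 classes of autosomal thresholded summits, weaker promoter summits and all promoter space, with 95% Wilson intervals. The palindrome is ATCGAT, GA-rich site 1 GAGACG, GA-rich site 2 AGAGAG and the NK-2 site TCAAGTG or TTAAGTG; promoter summits resemble summits between genes for the palindrome (70.2% and 69.7%).

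Promoter summits with several ATCGAT sites had the higher signals. None was found at 134 summits, 1 at 184, 2 at 73, 3 at 33 and 4 or more at 26, with at most 7. The median signals were 77.6, 77.5, 90.6, 111 and 303, in that order. The 26 with 4 or more ran from 105 to 777 in pooled signal, and their medians were 245 in replicate 1 and 82.1 in replicate 2, against 54.8 and 21.9 with no site. A single site did not go with a higher median than none, and the highest summit of all, at C55C3.3, had 1. The other autosomal summits had medians of 74.7, 81.6, 89.3, 130 and 209 in the same order. The Spearman correlation between site number and signal was 0.355 at promoters and 0.414 at the others, over summits that share libraries and base composition.

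**Figure D4:**
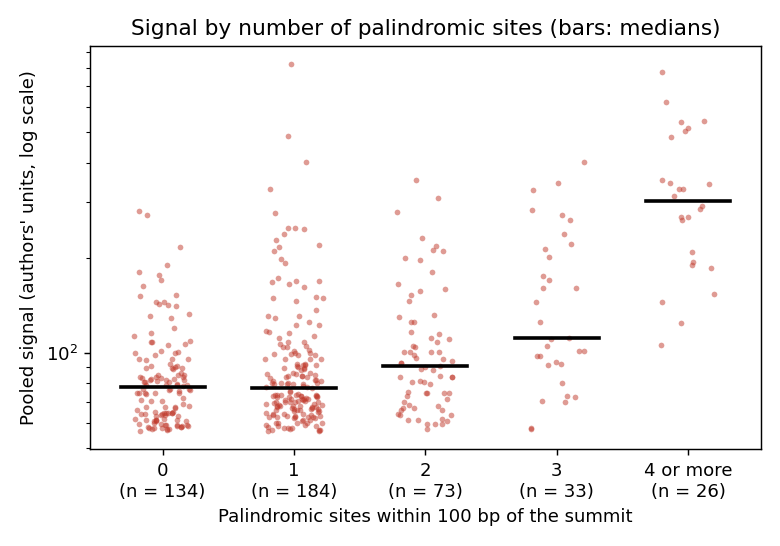
Pooled signal of each autosomal promoter summit (vertical, authors' units, log scale) by the number of ATCGAT sites (the palindrome) within 100 bp (horizontal, summit counts below). Black bars mark medians, which are 77.6 with no site, 77.5 with 1 and 303 with 4 or more.

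Neighbouring sites often lay 19 or 20 bp apart, as in some of the printed stretches. Inside the regions of promoter summits, 396 pairs of neighbouring ATCGAT sites started within 100 bp of each other, and 46 of these were 20 bp and 31 were 19 bp apart. The next most frequent distance was 18 bp, with 13 pairs. Together 19 and 20 bp made up 19.4% of the pairs, against 20.6% of 1984 pairs at the other autosomal summits (201 at 20 bp and 208 at 19 bp) and 15.2% of 197 pairs at weaker promoter summits, where 16 pairs were 4 bp apart. The commonest flanks gave AAATCGATAA, at 288 of 556 sites (51.8%), against 60.05% at the other autosomal summits and 30.1% at weaker promoter summits. From summit to nearest site the median was 14.5 bp, against 13.5 bp and 22.5 bp in the same order.

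**Figure D5:**
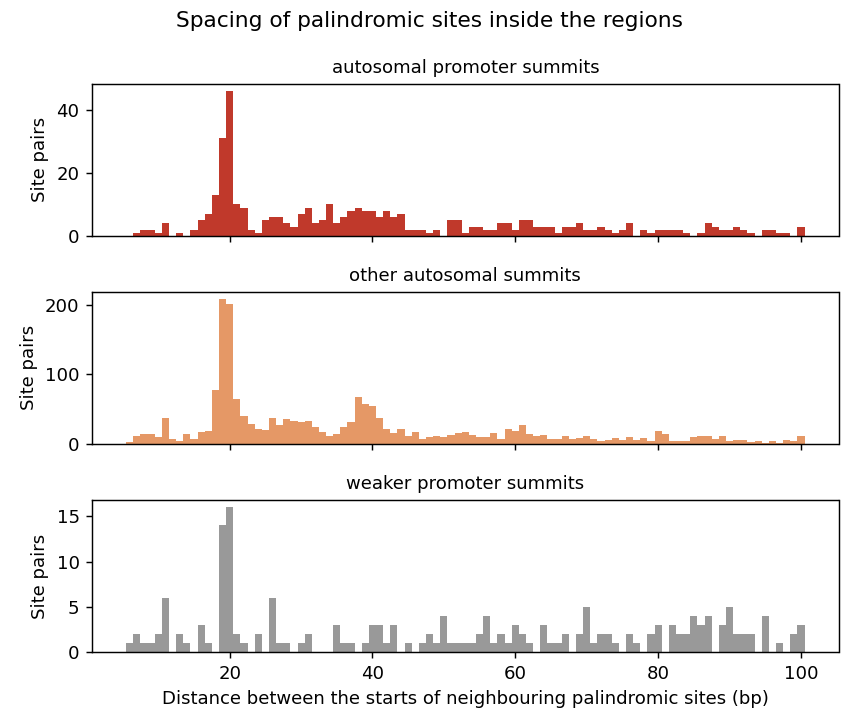
Number of pairs of neighbouring ATCGAT sites (the palindrome; vertical) by the distance between their starts (horizontal, bp) in the regions of promoter summits, other autosomal summits and weaker promoter summits. All 3 panels peak at 19 and 20 bp, with 77 of 396 pairs at promoter summits; overlapping copies, under 6 bp apart, are not drawn.

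The 134 promoter summits without ATCGAT had a median signal of 77.6 and a maximum of 281, at rpl-3, against 87.3 and 821 with the site. GAGACG or AGAGAG lay at 74 of them (55.2%), against 92 of the 316 with ATCGAT (29.1%). The variant ATCAAT also lay at 74 of them (55.2%). Their windows had a median GC content of 43.8% and 21.9% soft-masked (repeat-like) bases, against 37.1% and 38.8%. In introns lay 14.2% of them (9.27 to 21.1), against 35.8% (30.7 to 41.2) of those with the site. The outer 2 of 3 equal parts of the chromosomes held 57.5% (49.0 to 65.5), against 75.9% (70.9 to 80.3). Both replicates were high at 59.7% (51.2 to 67.6), against 71.2% (66.0 to 75.9). No test was made of these splits, and GC content, masking and chromosome position moved together with the site, so their parts were not tested.

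Among all 6-base words, with both strands merged, 125 were more common (6.01% of the words) and 123 less common (5.91%) at the promoter summits than at weaker promoter summits (Fisher's exact test, adjusted p under 0.05 over all words). ATCGAT had the lowest p (70.2% against 28.8%, Fisher's exact adjusted p = 7.94e-62), followed by words that overlap it, TATCGA (59.8% against 25.5%), AATCGA (69.6% against 35.4%), CGATAA (48% against 21.2%) and AAATCG (63.8% against 35.4%). Next came AAAATC (69.6% against 53.9%), ATTATC (31.6% against 18.5%) and ATCAAT (50.2% against 35.3%), then ACGCAG (18.2% against 9.10%) and GAGAGA (30.9% against 19.2%). The less common words were AT-rich, led by ATATTA (8.22% against 18.9%), TGATAA (10.4% against 20.98%), ATCTGA (4.89% against 12.6%) and TATAAA (12.2% against 21.98%). The others among the first 10 were CTTTGA (6.0% against 13.7%), AAAATA (42.4% against 54.7%), AATTGT (15.3% against 25.3%), AGTTAA (4.0% against 10.4%), ATAATA (10.4% against 18.9%) and AGATAA (6.22% against 13.4%). GAGAGA did not pass within 50 bp (13.8% against 10.8%, Fisher's exact adjusted p = 0.262), nor ACGCAG at or above the median signal of the list (15.3% against 9.10%, 0.110). Of the less common words, TGATAA, with adjusted p = 0.0617 by Fisher's exact test, CTTTGA (0.0617), AATTGT (0.0617) and ATAATA (0.0656) did not pass at or above the median signal, nor did AATTGT (0.108) and AGTTAA (0.109) within 50 bp. The median GC content was 38.6% at promoter summits and 34.8% at weaker ones, and its part in these words was not tested.

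Against the other autosomal summits, 160 words were more common (7.69%) and 37 less common (1.78%). The first were CAAACA (21.1% against 8.87%, Fisher's exact adjusted p = 1.52e-07), CGCGGC (9.78% against 3.11%), ACGCAG (18.2% against 8.87%) and ACGCGC (11.1% against 4.02%). They were followed by GAGAGA (30.9% against 18.9%), CGCAAC (8.89% against 2.74%), AGCGCG (10.4% against 3.75%), AAGAGG (13.6% against 5.94%), ACAGCG (8.67% against 2.93%) and GCGCGC (8% against 2.56%). The less common ones were led by TATCGA (59.8% against 77.6%), CGATAA (48% against 67.1%) and ATTATC (31.6% against 49.4%). The first 10 went on with TATTGA (42.2% against 59.4%), AATCGA (69.6% against 83.5%), CAATAA (36.9% against 53.5%) and AAAAAA (59.6% against 74.8%). They ended with ATCGAT (70.2% against 83.6%), AATCAA (48.9% against 64.4%) and AATTAT (37.3% against 52.3%). Of the more common words, GAGAGA did not pass within 50 bp (13.8% against 12.1%, Fisher's exact adjusted p = 0.674). At or above the median signal of the list 6 GC-rich words did not: ACGCAG (15.3% against 7.63%), ACGCGC (10% against 3.81%), CGCAAC (5.79% against 2.49%), AGCGCG (7.37% against 3.32%), ACAGCG (6.32% against 2.99%) and GCGCGC (5.79% against 1.82%), with Fisher's exact adjusted p between 0.0628 and 0.326. AAGAGG did not pass within 50 bp (0.0972) or with 500 bp either side of the start (0.0771). Here too GC content differed, with a median of 38.6% against 33.3%. By place, the other summits had medians of 30.3% in introns, 35.8% in exons and 40.8% between genes. The words were not compared with summits between genes alone, and the part of GC content was not tested.

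Within the summits lacking ATCGAT, a subset formed after the data were seen, GAGAGA lay at 42.5% of the promoter summits and 21.1% of the weaker ones. AGAGAG had 38.1% against 17.3%, CACACA 32.1% against 13.7% and ATCAAT 55.2% against 37.2%. CGTCTC followed with 29.1% against 12.1% and CGCCGC with 22.4% against 5.41%; these are the 6 words with the widest gaps. These values were not tested.

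Promoter summits were most dense on chromosomes I and III. Chromosome I held 138 (57.4 per Mb of non-exonic promoter space), III 113 (51.5), IV 77 (26.5), II 74 (25.6) and V 48 (11.0), against 30.5 per Mb over all autosomes. The share of promoter-rule summits that passed the threshold kept chromosomes I and III first, at 15.5% and 12.9%, with IV at 10.3%, II at 8.71% and V at 5.32%. Of the genes on chromosome III 5.53% had a promoter summit, of those on I 5.49%, on IV 2.71%, on II 2.49% and on V 1.28%. The outer 2 of 3 equal parts of the chromosomes held 70.4% of the promoter summits (66.1 to 74.5), against 88.0% (86.0 to 89.8) of the other autosomal summits (Fisher's exact adjusted p = 7.15e-15, lower on 5 of 5 autosomes). All autosomal promoter space had 64.2% there and weaker promoter summits 59.5%. Soft-masked bases had a median of 33.1% at promoter summits, 71.4% at intronic ones and 27.9% at those between genes.

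The 450 summits fell in the windows of 543 protein-coding genes, 3.15% of the 17242 on the autosomes. In 326 cases the summit was in 1 window, in 120 in 2 and in 4 in 3. A divergent pair, with the genes facing away from each other on opposite strands, accounted for 114 summits, 25.3% (21.5 to 29.5). Weaker promoter summits were at such pairs in 16.99% of cases (15.8 to 18.2) and promoter space in 11.0%. The divergent summits touched 113 pairs with 226 genes, whose starts were 60 to 1687 bp apart (median 606.5). Of them 104 lay between the starts, and the median summit sat 27.1% of the way across from the closer start. By construction that fraction is largest midway between the starts, and it was not compared with an even spread. Their median signal was 80.9, against 83.6 at the 336 single-sided summits, and 64.04% (54.9 to 72.3) had ATCGAT, against 72.3% (67.3 to 76.8). With windows of 500 bp either side of the start, the divergent share was 16.3%.

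At the highest pair the summit lay 69 bp upstream of tasp-1 and 716 bp upstream of K01G5.10, whose starts were 785 bp apart, with 312 in replicate 1 and 90.4 in replicate 2. At C50E10.1 and sre-50 (1071 bp apart) the values were 294 and 117, and at B0524.5 and B0524.2 (167 bp apart), 208 and 62.6; B0524.2 encodes a patatin-like phospholipase domain protein. The pair let-70, a ubiquitin-conjugating enzyme gene, and klc-1, a kinesin light chain gene (1482 bp apart), had 197 and 53.4. In these 4 pairs replicate 1 was between 2.51 and 3.68 times replicate 2. Lower pooled signals were found at R02F2.6 and R02F2.5 (211), at pcmd-1, for a protein of the pericentriolar matrix, with the palmitoyltransferase gene dhhc-7 (198), and at rpl-15 with K11H12.8 (176). The eighth pair joined drr-2, for an RNA-binding protein, and set-16, for a histone methyltransferase of the MLL family (172). Of the 114 divergent summits, 56 had at least 1 gene in the functional lists that follow and 7 had both. The lists hold 3815 of the 17242 autosomal genes. No share was computed over all divergent pairs, so these counts cannot be read as an association.

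The lists for protein synthesis, splicing, transcription and ubiquitin conjugation had promoter summits at higher shares than all autosomal genes, as did many other lists. The highest shares were in the short lists for the V-ATPase (4 of 18, 22.2%) and DBL-1 signalling (3 of 14, 21.4%). Under the alternative settings these 2 counts were not stable, ranging from 2 to 4 for the V-ATPase and from 0 to 3 for DBL-1 signalling. The lists were taken by patterns in gene symbols, 33 in all, and are described by counts beside the 3.15% of all autosomal genes, with no test. Together they held 130 of the 543 genes with a promoter summit and 3815 of all 17242 autosomal genes, which are similar shares. A further 194 of the 543 genes have only a sequence name. Since genes on chromosomes I and III had summits more often, the count that each chromosome's own share would give is set beside the main lists. Of the lists, 21 lay above 3.15%, 6 below and 6 held no gene with a promoter summit. Genes of the same function under other symbols are not in a list, so its count, its zero and its order hold for the list alone. Those named below as outside a list were chosen from their RefSeq product names after the values were seen. Some genes share a summit: 1 at 62.7 was counted for rps-29, snt-2 and trpp-11. Counts of list genes with ATCGAT are to be read beside the 70.2% of all promoter summits that had the site.

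In the making of proteins, 14 of 81 cytosolic ribosomal protein genes had a promoter summit (17.3%; 3.32 at the chromosomes' rates). The highest were rpl-3, 269 bp upstream with 281 pooled, 176 in replicate 1 and 103 in replicate 2, rpl-23 (200 pooled, 127 and 72.6) and rpl-15 (176 pooled, 98.9 and 78.9). All 14 summits lay upstream, and only 4 of the 14 genes had ATCGAT at the summit, against 70.2% of all promoter summits. The translation factor list had 5 of 41, led by erfa-1, for a release factor (95.6), eif-3.H (95.3) and ifg-1, for eIF4G (80.1), with Y48E1C.1, annotated as an eIF3 subunit (777), outside the list. Of the tRNA synthetase genes 3 of 32 had one, fars-2 (160), lars-1 (104) and aars-1 (60.8). For the nucleolus the count was 2 of 24, fib-1, for fibrillarin (131), and pro-1 (91.0). A small nucleolar RNA gene start lay in the same window span at 18 promoter summits, a tRNA start at 1 and a miRNA start at 1. These counts have no background share beside them, so they cannot be read as an association.

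In transcription and splicing, 11 of 59 splicing genes had a promoter summit (18.6%; 2.27 at the chromosomes' rates), 7 of them with ATCGAT. They were led by prp-8, the core spliceosome protein (152 pooled, 112 in replicate 1 and 39.6 in replicate 2), the Sm protein gene snr-2 (104) and hrpf-1 (100.04). The prp-8 summit also lay in the window of bath-42. The 11 genes include rsp-1 and rsp-2, which share 1 summit (84.8 pooled, 81.1 in replicate 1 and 6.002 in replicate 2). RNA polymerase and general transcription factor genes had 10 of 80 (12.5%; 3.13), 8 with ATCGAT, led by gtf-2F2, for a TFIIF subunit, with 6 sites and 264 pooled (190 in replicate 1 and 75.8 in replicate 2). After it came cdk-8, of the Mediator kinase module (163), and gtf-2H3, of TFIIH (113). The list of chromatin regulators had 9 of 65 (13.8%; 2.46), with chd-7, a chromodomain helicase gene (237), set-16 (172) and swsn-3, a SWI/SNF subunit gene (91.2) highest; ham-3, for another SWI/SNF subunit (113), and lin-59, for a putative histone methyltransferase (108), were outside it. The histone count was 3 of 79, with his-37 (101), hil-6 (66.7) and the H2A.Z gene htz-1 (63.7). Of the 49 genes in the list for DNA replication and repair none had one, against 2.03 at the chromosomes' rates. Outside it were polg-1, annotated as a DNA polymerase (146), pri-2, for the large subunit of DNA primase (62.05), and uvs-1, for a homologue of UV-stimulated scaffold protein A, whose summit is that of xpo-1 (60.01).

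In protein turnover and folding, the ubiquitin conjugation list had 9 of 48 (18.8%; 1.69 at the chromosomes' rates), and 8 of the 9 had ATCGAT. These were led by ubc-26 with 5 sites (285 pooled, 193 in replicate 1 and 98.1 in replicate 2), ubc-25 (218 pooled, 150 and 69.7) and ubc-9, the SUMO-conjugating enzyme gene (152 pooled, 119.3 and 35.2). Outside the list, let-70 stood between ubc-26 and ubc-25 (248). No gene of 33 in the proteasome list had a promoter summit, against 1.31. Chaperone genes had 4 of 55, none with ATCGAT, the highest being hsp-60 (70.9), cct-1 (67.7) and hsp-1 (64.5). Autophagy genes had 2 of 27, both Atg8-family genes without ATCGAT, lgg-1 (180 pooled, 126 in replicate 1 and 54.5 in replicate 2) and lgg-2 (143 pooled, 105 and 35.3).

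For membranes, energy and the cytoskeleton, the V-ATPase proton pump had 4 of 18 genes (22.2%; 0.621 at the chromosomes' rates), vha-11 with 4 sites (145), vha-8 (92.0) and unc-32 (80.03) being the highest. Vesicle traffic had 9 of 114, led by apg-1 (108), vps-32.1 (83.7) and arf-6 (83.2). The respiratory chain list had 4 of 43, with cox-5A (331 pooled, 248 in replicate 1 and 82.3 in replicate 2), nduf-7 (220.0) and atp-3 (58.9) highest. Outside it were the complex I genes nduc-2 (115.3), nduv-3 (108) and ndua-8 (79.8), and T27E9.2, for a subunit of the cytochrome b-c1 complex (91.6). Mitochondrial ribosomal proteins had 4 of 70, led by mrpl-15 (91.7), mrps-28 (79.9) and mrpl-11 (71.5). Cytoskeleton and motor genes had 5 of 52, with the beta-tubulin gene tbb-2 (150) and the capping protein genes cap-2 (144) and cap-1 (80.3) highest. Nuclear pore and transport genes had 2 of 42, ran-1 (84.7) and xpo-1 (60.01). Cell cycle genes had 5 of 78, led by cdc-48.1 (131), mdf-2, of the spindle checkpoint (108), and mat-1 (95.4).

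Of signalling and neuronal genes, 3 of 14 in the DBL-1 (TGF-beta) pathway had a promoter summit (21.4%, against a count of 0.545 at the chromosomes' rates). They were sma-3 (77.4) and sma-4 (74.4), which encode Smads, and sup-17, an ADAM protease gene (67.1). The count for this list ranged from 0 to 3 under the alternative settings. Synaptic genes had 4 of 33, all with ATCGAT, led by snb-1, for synaptobrevin (159 pooled, 112 in replicate 1 and 48.3 in replicate 2), unc-25, for the GABA-synthesising enzyme (74.4), and egl-21, for a carboxypeptidase of neuropeptide maturation (63.5). None of the 107 genes in the neuropeptide list, 45 homeobox genes with ceh symbols or the 5 autosomal genes of the M4 and CEH-28 list had one; outside the neuropeptide list, F59C6.18, annotated as an FMRF-like peptide, did (65.6). The counts at the chromosomes' rates were 3.50, 1.47 and 0.120. The bHLH, bZIP and forkhead factors had 2 of 50, hlh-11 (82.8) and aha-1 (78.9).

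Large families of environmental response and cuticle genes stood low. Chemoreceptor genes had 4 of 1276 (0.313%; 23.3 at the chromosomes' rates), sre-50 (402), str-246 (114) and sre-26 (108) being the highest. F-box, MATH and BTB genes had 5 of 395 (1.27%; 11.6), with bath-42 (152), and fbxb-61 and fbxb-63, which share a summit (67.5). Of 246 nuclear hormone receptor genes 3 had one (1.22%; 5.11). These were nhr-92 (274 pooled, 193 in replicate 1 and 72.3 in replicate 2), nhr-49, a regulator of fat metabolism (248 pooled, 197 and 49.9), and nhr-119 (64.4). Cuticle collagen genes had 2 of 146 (4.45), col-104 (221) and col-132 (57.1). Cytochrome P450 and UGT genes had 1 of 130, ugt-31 (98.5). C-type lectin genes had 0 of 237, against 6.49. The germline list had 1 of 49, mut-15, which shared the fib-1 summit (131).

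The lists also differed in how many of their genes had any peak. Of all autosomal genes with some pooled promoter summit, thresholded or weaker, 12.5% had a thresholded one (543 of 4361). By this measure ribosomal protein genes had 22.95% (14 of 61), ubiquitin conjugation 34.6% (9 of 26), splicing 30.6% (11 of 36) and chromatin regulators 29.0% (9 of 31). Chemoreceptor genes had 4.30% (4 of 93) and F-box, MATH and BTB genes 6.49% (5 of 77).

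Of the 543 genes, 513 had 1 promoter summit, 25 had 2 and 5 had 3. At K08C9.1 the summits lay 122 and 741 bp upstream and 456 bp downstream, with signals of 354, 344 and 208, and with 5, 7 and 7 ATCGAT sites; all 3 had the same region values, 258 in replicate 1 and 147 in replicate 2. Y71G12B.32 had signals of 279, 231 and 211, and Y69A2AR.23, on chromosome IV, 217, 169 and 75.1. At immp-2, for a mitochondrial inner membrane peptidase, the signals were 186, 97.9 and 57.3. At ZK484.6, for a phosphoglycerate mutase family protein, they were 99.9, 79.5 and 61.5, all upstream and, apart from the lowest, without ATCGAT. No promoter summit lay near the transgene's marker gene unc-119, where the nearest was 50710 bp away, and ceh-28 itself lies on X.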

How the data were processed

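ChIP-seq peaks of eGFP-tagged CEH-28 from 2 replicates were used as deposited. The authors' lists on ce11 (each replicate, both pooled, and the IDR-thresholded list) give a signal, the peak height, whose scale is not stated; it was used to describe and rank summits. The deposited −log10 q values stood at their maximum of 3.76 at all 450 promoter summits and ranked nothing. The sources used here do not name an aligner or a peak caller. The lists hold no counts, so depth is unknown. The ce10 lists were not used.

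Chromosome lengths of WBcel235 fitted all 4 lists. Gene starts, exons and introns came from Ensembl release 115, sequence, masking and product names from RefSeq. Motif and 6-mer windows reached 100 bp either side of the summit. A replicate's value is that of its highest summit in the regions overlapping the summit's region by at least 1 bp. The 7 shares and the 2080 6-mers in each contrast were compared with Fisher's exact test (two-sided, Benjamini-Hochberg adjustment, threshold 0.05), after the code was tested on simulated data. Named genes are those of the 20 highest summits, the 8 highest divergent pairs, up to 3 per list, genes with 3 or more summits, the summits at the window and threshold edges, ceh-28 and unc-119. Outside this rule, genes of summits that differ between the replicates, T08B6.4 and lgg-1 as sequences without ATCGAT, and genes outside the lists were named after their values were seen. The members and lists were chosen with earlier results of these data known. Alternatives covered the motif window, promoter window, gene starts, exon filter, signal threshold, summits per region, matching of replicates and single replicates. The software was pandas 2.3.3, scipy 1.17.1 and numpy 2.4.6 under Python 3.11.15, with matplotlib 3.10.9 for figures.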

Additional observations from a re-analysis of the deposited data

How the results depend on the processing

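Of 112 alternative values of the main results, 95 kept their direction and side of the threshold, or stayed within 1.5 times the main count or within the main interval. Within 50 bp of the summit GAGACG (10.2% against 7.68%) and AGAGAG (11.6% against 9.78%) lost their calls, with Fisher's exact adjusted p of 0.150 and 0.311. The share high in both replicates lost its call both among summits of at least median signal (94.2%, 0.0788) and for replicate summits within 100 bp (63.1%, 0.227). With 500 bp either side of the start the NK-2 site passed at 4.49% (Fisher's exact adjusted p = 0.0251), the divergent share was 16.3% and the median distance 121.5 bp; that window is shorter by construction. The called 6-mers against other autosomal summits numbered 105 within 50 bp, 54 among summits of at least median signal, 99 with 500 bp either side and 126 with the start of any transcript, against 197 in the main comparison. Against weaker promoter summits they numbered 60 at or above the median signal, and 135 for windows of 500 bp either side, against 248; with 1 replicate left out they ranged from 314 (replicate 1 alone) to 391 (replicate 2 alone). At or above the median signal 190 summits and 225 genes remained by construction, and the replicates' Spearman correlation was 0.705. Of 320 values of named 6-mers 303 stayed the same and 17 lost their call, 11 of them at or above the median signal, 5 within 50 bp (GAGAGA in both comparisons) and 1 with 500 bp either side. Counts of list genes with a promoter summit, recomputed as an alternative added after the data were seen, stayed within 1.5 times in 187 of 231 cases; ribosomal protein genes ranged from 7 to 19, splicing from 6 to 11, ubiquitin conjugation from 4 to 10 and chemoreceptors from 1 to 8. Where no construction is given, the cause was not tested. Unknown depth limits all values. No paired analysis was possible because there is 1 group.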
